A study of Rattus norvegicus with 23 samples.

Results

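The comparison set the lesion effect in rat dorsal root ganglia at 148 h after sciatic nerve transection, about the end of the first week, against the effect at 48 h. It used 6 of the 23 arrays of the series, the 3 titled 148 h and the 3 titled 48 h, and 3090 of 5088 probes, those with a value on at least 2 arrays of each time. A positive difference means that the log2 ratio of lesioned over intact ganglia was higher at 148 h than at 48 h. Since every array carried its own intact sample, and lesioned RNA always had Cy5 and intact RNA Cy3, a dye bias of a probe cancels in this difference only as far as it stayed constant.

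The lesioned samples at 148 h and at 48 h were L4 and L5 ganglia of Long-Evans rats whose sciatic nerve was cut at postnatal days 20 to 24, and the intact samples of each array were ganglia without the cut. For a look at other arrays, the 2 arrays at 296 h (1 of them carries 294 h in its time label) were set against the 3 arrays at 24 h, from animals of the same kind. The labels also speak of cultured cells and of cAMP treatment, whereas their surgical text describes dissected ganglia. They tell neither whether replicate arrays came from separate animals nor which animals gave the intact ganglia. A p-value therefore speaks only of scatter between arrays, and in the main fit this scatter was estimated over the arrays of all times. In whole ganglia, more cells of a type and more RNA per cell cannot be told apart, and ratios give no level with which the presence of a cell type could be checked.

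A cut peripheral axon sets off a slow programme in the cell body in the ganglion. Within the first days the neurons switch peptides, with galanin, neuropeptide Y and vasoactive intestinal peptide known to be made anew while substance P and CGRP decline, and growth-associated genes are induced. Macrophages enter the ganglion and glial cells react over the following days, while neurofilament synthesis is known to decline as the axon regrows. The arrays at 48 h and at 148 h sample an earlier and a later part of this course.

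The markers given for this comparison were Npy, which encodes neuropeptide Y, C1qb, which encodes a chain of complement C1q made by macrophages and microglia, and Vgf, which encodes a secreted neuropeptide precursor. The 250 bases before the RefSeq start site (GRCr8) are shown for Npy, the largest peptide difference, and for Vgf and Il6. Probe 1D09 of Vgf differed by -0.84 and Il6 by -0.96 (limma, adjusted p = 0.822 and 0.699). The other probe of Vgf, 52D09, differed by -0.13, and by 0.71 with array class in the model. The windows of Vgf and Il6 share a cAMP response element, and showing this pair is no test of a link between element and direction. Capitals mark this element, TGACGTCA, and its shorter core TGACG, searched on both strands, where every full element also holds the core. The windows are chr4:80211861-80212110 on the plus strand, chr12:25277021-25277270 on the minus strand and chr4:5894576-5894825 on the minus strand, each written in the direction of transcription.
Npy: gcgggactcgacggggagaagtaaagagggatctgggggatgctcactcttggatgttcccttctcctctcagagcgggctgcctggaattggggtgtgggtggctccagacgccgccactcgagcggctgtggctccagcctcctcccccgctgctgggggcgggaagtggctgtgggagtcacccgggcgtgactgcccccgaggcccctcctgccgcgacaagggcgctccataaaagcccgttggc
Vgf: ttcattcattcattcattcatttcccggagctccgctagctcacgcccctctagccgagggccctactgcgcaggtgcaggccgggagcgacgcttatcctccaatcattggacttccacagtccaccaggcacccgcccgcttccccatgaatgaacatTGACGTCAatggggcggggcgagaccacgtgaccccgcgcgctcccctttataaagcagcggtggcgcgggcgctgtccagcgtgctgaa
Il6: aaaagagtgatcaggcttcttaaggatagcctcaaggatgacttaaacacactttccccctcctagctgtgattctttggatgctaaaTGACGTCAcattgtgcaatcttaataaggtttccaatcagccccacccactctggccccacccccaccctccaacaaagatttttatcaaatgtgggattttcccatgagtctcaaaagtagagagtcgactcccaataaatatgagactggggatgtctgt
The full element starts at position -90 in Vgf and at -162 in Il6, counted from the first transcribed base, and these letters are not in the window of Npy. Npy1r, the gene of a neuropeptide Y receptor, holds the core at -138 in its window, not shown, and its difference was 1.81. Of 33469 rat promoters 1.59% hold the full element and 18.22% the core. The 54 tested probes of genes with the full element had a median difference of 0.08, 30 above 0 and 24 below, beside 0.08 for all 2238 tested probes of genes with a promoter window, so by this median the genes with the element did not stand apart.

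Across all 3090 probes no difference passed an adjusted p of 0.05 (0%, limma with array weights and Benjamini-Hochberg adjustment), and the smallest adjusted p was 0.0796. At an unadjusted p under 0.05 there were 153 probes higher at 148 h (4.95%) and 89 lower (2.88%). The arrays of the times did not overlap on 314 probes higher at 148 h (10.2%) and 249 lower (8.06%), and on 64 (2.07%) and 49 (1.59%) of all probes the arrays of 148 h lay wholly above or wholly below 0 with those of 48 h on the opposite side. The values below are therefore a description of these arrays, given with standard errors (SE) of the fit, and none of the differences named was past the threshold. These SE use a variance fitted over the arrays of all times, so they do not measure the scatter of the compared arrays alone. With equal weights for all arrays 56 probes were higher (1.81%) and 20 lower (0.647%) at an adjusted p of 0.05. A fit on the 6 arrays alone gave 0 calls and 183 at an unadjusted p under 0.05, and the methods' t-test gave 0 and 172. Leaving out replicate 1 or replicate 2 at 148 h gave 2 and 10 calls, Keap1 and Golph3 without the first and Slc7a5, Prf1, Npy and Naa35 among those without the second.

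Array class moved with time. All 3 arrays at 148 h and replicates 2 and 3 at 48 h were sparse, with 735 to 3025 missing probes and a log2 SD of 1.22 to 1.61, whereas replicate 1 at 48 h was one of the 17 full arrays of the series, with 112 missing probes and an SD of 0.91. Array weights fell between 0.22 and 0.55 on sparse arrays and between 0.39 and 3.10 on full ones. Without replicate 1 at 48 h, where the 2 means compared came from sparse arrays alone, 0 of 2524 probes passed. Full arrays of the other times still entered the variance and the weights of that fit. Scaling all arrays to an equal median absolute log2 ratio multiplied the 148 h arrays by 0.486 to 0.620 and the 48 h arrays by 0.593 to 0.728, and so made most differences smaller, with 0 calls and 221 probes at an unadjusted p under 0.05. The mean lesion effects at the 2 times correlated across probes with Pearson's r = 0.66, with an SD across probes of 1.16 at 148 h and 0.95 at 48 h. Probes are not independent replicates, and the times share the dye order and mostly the sparse class.

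**Figure D1:**
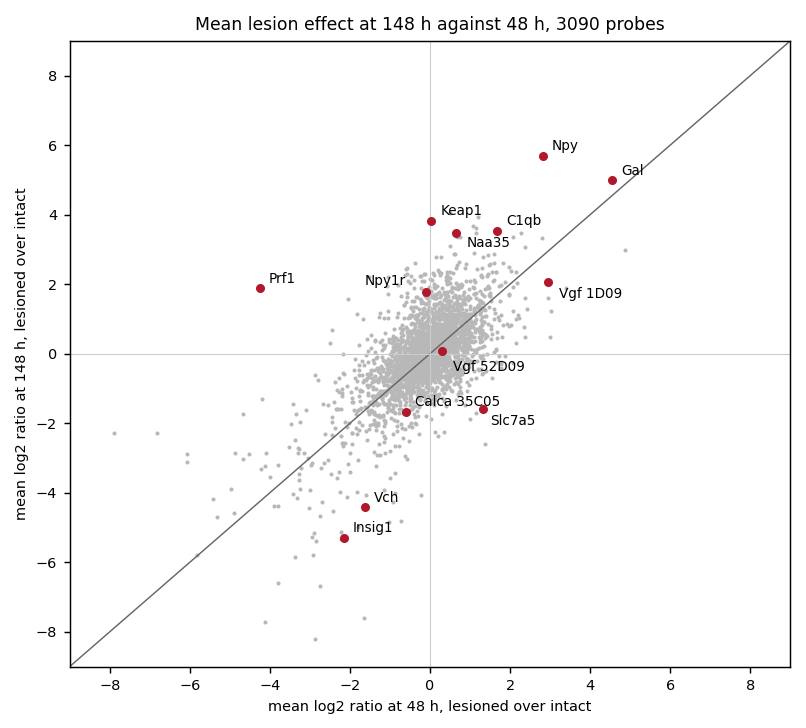
Mean log2 ratio of lesioned over intact at 148 h (vertical) against 48 h (horizontal), each point a probe measured on at least 2 arrays of each time, with equality as a diagonal. Of 3090 points 1 lies outside the axes. Npy, Naa35, Keap1, Prf1 and C1qb lie above the diagonal and Slc7a5, Insig1, Vch and probe 1D09 of Vgf below it.

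Npy had the largest difference among the injury peptides. Its log2 ratios were 7.38, 4.79 and 4.92 on the arrays at 148 h, against 2.51 and 3.10 on replicates 1 and 2 at 48 h. Every 148 h array was thus above every 48 h array, and the mean ratio was 51.9-fold over intact at 148 h and 7.01-fold at 48 h. The weighted difference was 2.58 ± 0.55 (SE, n = 3 and 2), a 5.98-fold difference with a 95% interval of 1.42 to 3.74 on the log2 scale (adjusted p = 0.0812). This SE and interval use a variance fitted over the arrays of all times. The Npy arrays themselves had an SD of 1.46 at 148 h and 0.42 at 48 h. The difference was 1.18 after scaling (adjusted p = 0.498). It passed the threshold in 2 of the alternative fits, with equal weights (adjusted p = 0.0151) and without replicate 2 at 148 h (3.37, adjusted p = 0.0196). With the arrays of both times alone and equal weights the adjusted p was 0.807, and with the methods' t-test it was 0.899. Between 4 and 24 h the mean ratio of Npy stayed between -0.46 and 0.28, so the 48 h arrays already stood above every earlier mean.

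Npy1r encodes the Y1 receptor for neuropeptide Y, which sensory neurons carry. It was outside the rule for named genes and was looked up after its values were seen. Its log2 ratios were 2.22, 1.44 and 1.67 at 148 h, against -0.25, -0.02 and -0.03 at 48 h. The groups lay on opposite sides of 0 and differed by 1.81 ± 0.45 (SE, n = 3 each, adjusted p = 0.143, and 0.0108 with equal weights). At 296 h the full array had 0.03 and the sparse array 2.02, so a high ratio was seen at 148 h and at 296 h on sparse arrays alone, while the sparse arrays at 48 h were near 0.

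The other induced peptides differed by less than the error of the fit or little more. Galanin (Gal) had 4.38 and 5.58 on replicates 2 and 3 at 148 h, against 4.28, 3.89 and 5.48 at 48 h. These ranges overlapped, with a difference of 0.61 ± 0.63 (SE). Vip, for vasoactive intestinal peptide, had 3.38, 1.37 and 1.75 at 148 h, against 0.91, 0.64 and -0.06 at 48 h, without overlap and with a difference of 1.28 ± 1.10. Vgf had 2.10, 1.70 and 2.37 on probe 1D09 at 148 h, against 2.33, 3.47 and 3.05 at 48 h. These arrays overlapped and the difference was -0.84 ± 0.55 (SE, 95% interval -1.998 to 0.32). Its other probe, 52D09, read -0.46, 0.40 and 0.28 at 148 h, against 0.28, 0.35 and 0.29 at 48 h, a difference of -0.13 ± 0.67 that came to 0.71 with array class in the model. Probe 52D09 thus did not follow the high ratios of probe 1D09 at either time. Of 11 tested probes on the list of injury-associated neuropeptides 7 had positive and 4 negative differences, the median was 0.20 beside 0.07 over all probes, and 1 (Npy) reached an unadjusted p under 0.05 (4.95% of all probes were higher at this level). The median of the list was 0.02 without replicate 3 at 48 h and 0.03 without replicate 1 at 148 h, where all probes had 0.08 and 0.03.

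**Figure D2:**
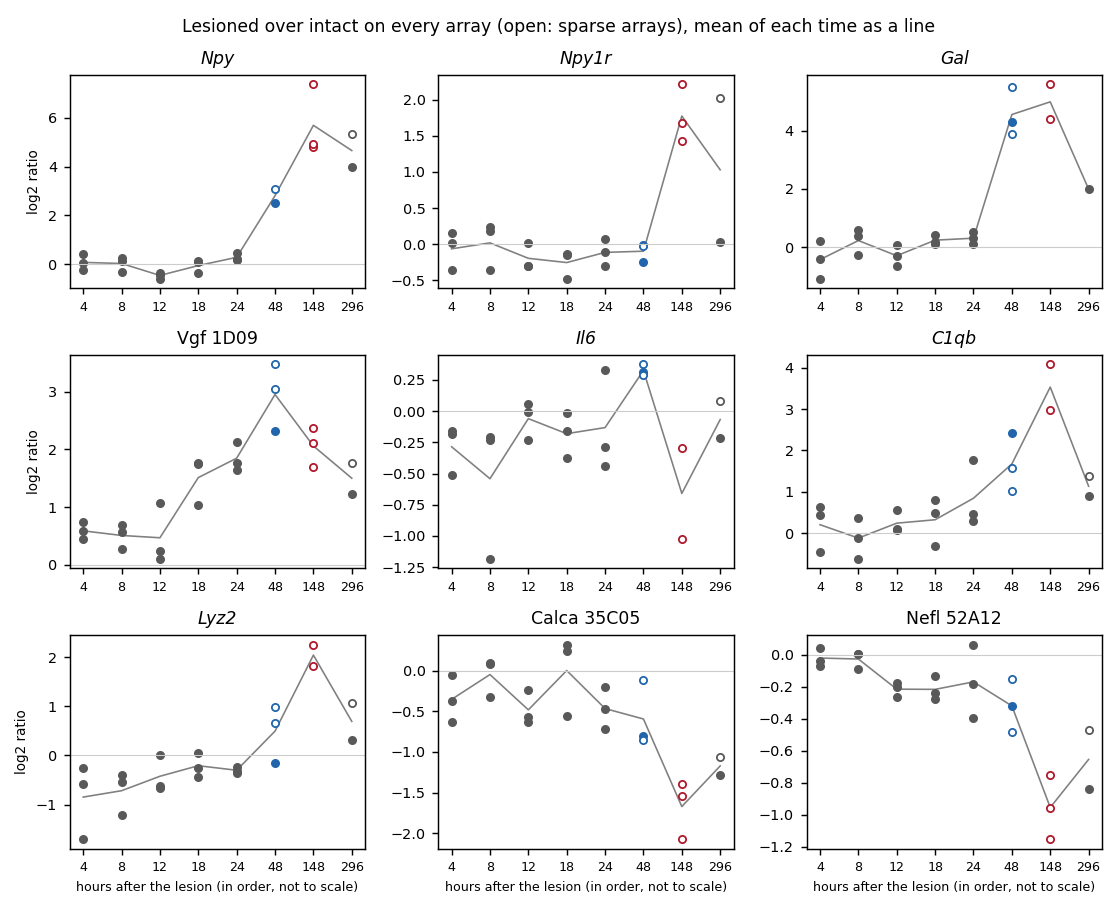
Log2 ratio of lesioned over intact on each array (points, sparse arrays open, 148 h red, 48 h blue) against hours after the lesion in order for 9 probes, the line joining the means. Npy stood at 5.70 at 148 h and 2.81 at 48 h, while Il6 and Nefl stood lower at 148 h than at every other time.

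Nociceptor genes, which are active in pain-sensing neurons, showed no common direction, with 8 of 16 tested probes above 0 and a median of 0.03 that ran from -0.21 to 0.12 when 1 array was left out. Calca, the gene of the peptide CGRP, had like differences on its 2 probes. Probe 52C03 had -0.90, -0.84 and -0.94 at 148 h, against -0.20, 0.09 and -0.04 at 48 h. Probe 35C05 had -2.07, -1.55 and -1.40 at 148 h, against -0.81, -0.86 and -0.12 at 48 h. On each probe all 148 h arrays lay below all 48 h arrays, with differences of -0.83 ± 0.26 and -0.89 ± 0.46 (SE, n = 3 each, adjusted p = 0.311 and 0.677). With equal weights the adjusted p was 0.0153 and 0.0488. Tac1, the substance P precursor, differed by -0.40 ± 0.39 and the sodium channel gene Scn10a by -0.35 ± 0.52, with overlapping arrays. Ret, the signalling receptor for GDNF-family factors, disagreed between its probes, at 2.12 ± 0.74 on 28H11 and -0.57 ± 0.49 on 35F03.

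Neurofilament subunit genes, which set axon calibre, were lower at 148 h than at 48 h on all 4 tested probes, 3 of them without overlap, a pattern that 8.06% of all probes had in this direction. Nefl had -1.15, -0.96 and -0.75 on probe 52A12 at 148 h, against -0.32, -0.48 and -0.15 at 48 h, a difference of -0.57 ± 0.27 (SE). On probe 27F06 it had -1.14, -0.61 and -0.68 at 148 h, against -0.21, -0.17 and 0.10 at 48 h, a difference of -0.60 ± 0.37. Nefm, the middle subunit, had -0.42, -0.26 and -0.65 at 148 h, against 0.17, -0.03 and 0.00 at 48 h, with a difference of -0.51 ± 0.31. The heavy subunit gene Nefh differed by -0.39 ± 0.50 with overlapping arrays. The adjusted p of the 4 probes lay between 0.628 and 0.999, and each kept its sign in every alternative fit. The other 9 tested probes of the axonal list were mixed, with 6 above and 3 below 0 and a median of 0.25. Map1b, for a microtubule-associated protein, was higher without overlap on probe 31C04 (0.59 ± 0.63) and lower without overlap on probe 31C10 (-0.67 ± 0.76).

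Regeneration-associated genes, such as those for growth cone proteins and injury-induced factors, had a median difference of 0.10 over 25 tested probes, with 15 above 0 and 0 at an unadjusted p under 0.05. Leaving out 1 array moved this median between 0.01 and 0.14. Gap43, for a growth cone protein, had 1.45, 1.504 and 1.27 at 148 h, against 1.28, 1.25 and 1.03 at 48 h, and its difference of 0.18 ± 0.36 came to -0.01 after scaling. Stmn4, of the stathmin family, had 3.04, 1.77 and 2.25 at 148 h, against 2.29, 2.24 and 1.90 at 48 h, a difference of 0.00 ± 0.43 that was -0.19 after scaling. Both genes stood above intact ganglia on every array of each time.

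Of the 25 probes 4 were lower and 1 higher at 148 h without overlap, beside 8.06% and 10.2% of all probes. Il6, the interleukin whose receptor chain is gp130, had -0.30 and -1.02 on replicates 2 and 3 at 148 h, against 0.32, 0.29 and 0.38 at 48 h, on opposite sides of 0 (difference -0.96 ± 0.51, SE, adjusted p = 0.699). By quantitative PCR, the paper reports a very large rise of Il6 mRNA at the earlier of these times. It also describes the dynamic range of such arrays as narrower. The mean of the Il6 probe at 48 h was only 1.25-fold over intact, so the probe did not show a rise of that size. The cause of this gap was not tested. Hspb1, a small heat shock protein gene, had 0.99, 1.13 and 1.06 on probe 9H02 at 148 h, against 1.49, 1.67 and 1.93 at 48 h. That difference was -0.56 ± 0.31, while the arrays of its probe 52D12 overlapped at -0.31 ± 0.39. Arg1, for arginase 1, had 0.80, 0.57 and -0.07 at 148 h, against 1.48, 1.01 and 1.24 at 48 h (-0.89 ± 1.11), and Itgb1, for integrin beta 1, differed by -0.34 ± 0.38. The signalling list around Il6 (7 probes, with Cntf, Lifr, Il6st, Jak1 and Stat3 among them) had a median of -0.18, 2 above 0 and 0 at an unadjusted p under 0.05. Atf3, Sox11 and Slpi had too few measured arrays to be tested.

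Markers of macrophages were measured thinly, with 4 of 10 genes on the array tested. C1qb had 2.98 and 4.08 on replicates 2 and 3 at 148 h, against 2.43, 1.58 and 1.02 at 48 h. The arrays did not overlap, and the difference was 1.65 ± 0.81 (SE, 95% interval -0.05 to 3.35, adjusted p = 0.643). Lyz2, which encodes lysozyme, had 1.83 and 2.26 at 148 h on the same arrays, against -0.15, 0.99 and 0.65 at 48 h, also without overlap (1.62 ± 0.62, adjusted p = 0.461). Aif1, a macrophage and microglia gene as well, ran the other way, with -0.48 and -0.48 at 148 h against 1.24 and 0.03 at 48 h (-1.17 ± 0.60), and Ctss differed by -0.08 ± 0.81. C1qb and Lyz2 had means of 1.14 and 0.69 at 296 h, lower than at 148 h. Cd53 and Ptprc could not be tested.

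Lymphocyte genes held some of the widest values. Prf1, for perforin of cytotoxic cells, had 1.08, 0.41 and 4.14 at 148 h, against -3.16 and -5.34 on replicates 1 and 3 at 48 h. The difference of 5.75 ± 1.14 (SE, adjusted p = 0.0798) lay more in the 48 h arrays than in the 148 h arrays, with a mean 3.67-fold above intact at 148 h and 19.05-fold below it at 48 h. Its mean at 24 h was 0.08 and at 296 h -0.24. The 3 tested probes of Gzmb, for granzyme B of the same granules, differed by -1.49 ± 0.89, -1.24 ± 1.07 and -1.05 ± 1.25, opposite in sign to Prf1. The receptor gene Klrg1 read -3.89 and -11.52 at 148 h, against -1.86 and -6.38 at 48 h, with a difference of -5.76 ± 2.82 and overlapping arrays.

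Genes of glia and connective tissue gave the following. Mal, for a proteolipid of compact myelin, had 1.39 and 3.09 on replicates 2 and 3 at 148 h, against -0.24, -0.41 and -0.10 at 48 h, on opposite sides of 0 (2.49 ± 0.75, SE, adjusted p = 0.282). Mag, for myelin-associated glycoprotein, was lower by -1.52 ± 0.59 on probe 33A02 and differed by 0.15 ± 0.55 on probe 32H06, which was -0.003 with array class in the model. The 7 tested Schwann cell probes had a median of 0.08, and satellite glia genes had 6 of 7 below 0 with a median of -0.02 (-0.28 without replicate 1 at 148 h). Fibroblast and matrix genes were above 0 on 17 of 19 probes (16 after scaling), with a median of 0.41, whereas 55% of all tested probes were above 0. Without replicate 2 at 48 h 11 of 17 of these probes were above 0 and 6 below, with a median of 0.32, and leaving out any other array kept between 15 of 19 and 18 of 18 above 0. Among these genes, Dcn (decorin) had 1.41, 1.29 and 0.65 at 148 h, against 0.46, -0.01 and 0.41 at 48 h, and Lum (lumican) had 0.90, 0.98 and 0.78 at 148 h, against 0.58, -0.35 and -0.49 at 48 h. Neither pair overlapped, with differences of 0.79 ± 0.47 and 0.84 ± 0.41, and 1 of the 19 probes (Bcan 24E09, 1.63 ± 0.62) reached an unadjusted p under 0.05. The other probe of Bcan, 52F04, differed by 1.10, and averaging the probes of the gene gave 0.09.

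All 3 tested skeletal muscle genes, which a ganglion should lack, had positive differences. Tnnc2 (fast troponin C) had 0.53 and 4.33 on replicates 2 and 3 at 148 h, against -0.58 and -0.62 at 48 h. The differences were 2.96 ± 1.54 for Tnnc2, 1.34 ± 0.67 for Mb (myoglobin) and 1.48 ± 0.64 for Ckm (muscle creatine kinase), with replicate 3 the highest 148 h array for each. The arrays of Mb and Ckm overlapped between the times, and the difference of Ckm was 0.69 without replicate 3 at 148 h. The part of attached tissue in the matrix values above was not tested. Endothelial genes had 4 of 4 probes below 0, from -1.15 to -0.25, none at an unadjusted p under 0.05. This sign was not stable, since with array class in the model 1 of the 4 was above 0, and without replicate 2 at 48 h only 2 could be tested, 1 above and 1 below 0.

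**Figure D3:**
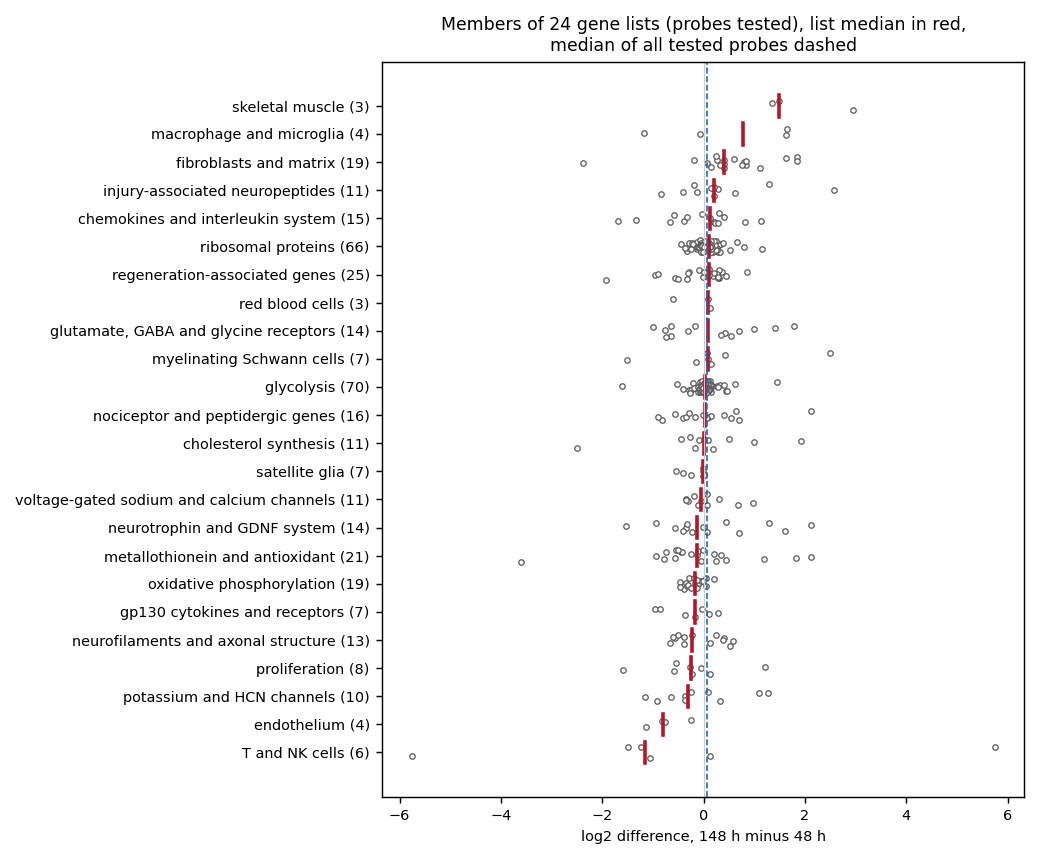
Log2 difference of 148 h minus 48 h for each tested probe of 24 gene lists (number of probes in brackets), with the list median as a red bar and the median of all tested probes, 0.07, as a dashed line. List medians ran from -1.15 for T and NK cell genes to 1.48 for muscle genes, and lists of over 10 probes stayed between -0.23 and 0.41.

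Metabolic groups had small differences. Oxidative phosphorylation genes were below 0 on 16 of 19 probes (15 after scaling), with a median of -0.17 and a range of -0.47 to 0.21, and 0 reached an unadjusted p under 0.05. Cox6c, a subunit of cytochrome c oxidase, was the only one without overlap, on probe 2G09 with -0.76, -0.73 and -0.49 at 148 h against -0.19, -0.15 and -0.22 at 48 h. Its difference there was -0.46 ± 0.38. Ribosomal protein genes had a median of 0.11 with 42 of 66 above 0, and glycolysis genes, most of them probes of Gapdh, a median of 0.03.

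Antioxidant genes differed in each direction. The glutathione enzymes Gsr (glutathione reductase), Gclm (of the enzyme that starts glutathione synthesis) and Gpx1 (glutathione peroxidase 1) had differences of 1.83 ± 0.66, 2.12 ± 0.93 and 1.18 ± 0.46, the 3 probes of 21 higher at an unadjusted p under 0.05, beside 4.95% of all probes. Their 148 h arrays lay far apart: Gsr had 0.46 and 3.98, Gclm -0.29 and 3.82, and Gpx1 0.05 and 1.51. The arrays of Gsr and Gclm overlapped between the times, and the higher 148 h array carried their differences. Superoxide and peroxide scavengers and metallothioneins were lower without overlap on 4 of the 21 probes, beside 8.06% of all probes, and these were chosen here for that pattern: Prdx2 (-0.78 ± 0.41), Mt3 (-0.55 ± 0.38), Mt1 on probe 52G03 (-0.46 ± 0.29) and Sod1 (-0.43 ± 0.37). The other tested probes of Mt1, 22G06 and 52F03, differed by -0.12 and -0.73. Differences on the list ran from -3.60 to 2.12. The list median was -0.13, and -0.44 without replicate 2 at 148 h.

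In cholesterol synthesis, where 11 probes had a median of 0.00, the ends were Lss and Insig1. Lss (lanosterol synthase) had 1.55 and 3.13 on replicates 2 and 3 at 148 h, against -0.18, 1.07 and 0.40 at 48 h, a difference of 1.92 ± 0.64 (SE, adjusted p = 0.336). Insig1, which holds back the pathway's activation, had -6.10 and -4.48 on replicates 1 and 2 at 148 h, against -3.23, -2.51 and -0.73 at 48 h (-2.49 ± 1.44). Both sets of arrays were without overlap. Among potassium channels Kcnk1 differed by 1.28 ± 0.44, while Hcn2, for a pacemaker channel, had -1.17 ± 0.49.

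Receptors for growth factors and transmitters gave single differences in each direction. Gfra1, for a GDNF co-receptor, had 2.20, 3.64 and 1.83 at 148 h, against 0.48, 2.35 and 1.59 at 48 h, with overlap (1.28 ± 0.65, SE). Ntrk2, for the BDNF receptor TrkB, had -0.51 and -0.78 on replicates 2 and 3 at 148 h, against 0.09, 0.17 and 1.11 at 48 h (-0.94 ± 0.47), on opposite sides of 0. The glutamate receptor genes Grik3, of the kainate type, and Gria1, of the AMPA type, differed by 1.77 ± 0.58 and 1.42 ± 0.69, the first without overlap. Of 14 tested probes of glutamate, GABA and glycine receptors 7 were above 0, with a median of 0.08. Cdk1, a kinase of dividing cells, had 2.15, 0.92 and 1.12 at 148 h, against 0.11, -0.38 and 0.73 at 48 h (1.21 ± 0.71), while 6 of the 8 tested probes of the proliferation list were below 0, and 4 of 8 without replicate 3 at 148 h.

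Outside the lists, the probes with a gene symbol were led in the ranking by moderated t by Keap1, for the adaptor that marks the antioxidant regulator Nrf2 for degradation. It had 4.25 and 3.41 on replicates 2 and 3 at 148 h, against -0.53, 0.90 and -0.29 at 48 h, a difference of 3.80 ± 0.65 (SE, adjusted p = 0.0796). Naa35, for a subunit of the N-terminal acetyltransferase NatC, had 4.47, 2.39 and 3.57 at 148 h, against 0.08, 0.35 and 1.48 at 48 h (2.83 ± 0.56, adjusted p = 0.0798). Klf9, for a zinc finger transcription factor, had 2.84 and 2.91 at 148 h, against 0.76, 0.42 and 0.69 at 48 h (2.25 ± 0.45, adjusted p = 0.0812). Each of these was without overlap and with high 148 h arrays, the pattern that Npy also had. Of all probes 10.2% were higher without overlap, and the ranking, made on these same arrays, favoured such separation. At 296 h only the full array measured Keap1 and Klf9, with 0.17 and -0.13, where Npy had 3.98 and Naa35 2.07. Chrnb4, of nicotinic acetylcholine receptors, had 3.48 and 0.91 on replicates 1 and 2 at 148 h, against -1.04, -1.25 and -0.87 at 48 h. Sema6c, for a transmembrane semaphorin, had 2.18 and 2.39 at 148 h, against -0.61, -0.19 and -0.95 at 48 h. Acox2, of peroxisomal fatty acid oxidation, instead returned towards intact values, with 0.16, 0.25 and -0.41 at 148 h against -2.74, -2.05 and -1.71 at 48 h (2.29 ± 0.51). The remaining named probes among the 12 highest with a symbol were Blvra, Gtf2a2, Golph3 and B3galt4, with differences of 2.22 to 2.89, of which Golph3 had overlapping arrays. Probes without a symbol were left out of this ranking, and 2 of them stood among these 12 by moderated t. Probe 24D12 had 3.95 and 4.16 on replicates 2 and 3 at 148 h, against 0.63, 0.30 and 0.54 at 48 h, a difference of 3.56 ± 0.68 (SE, adjusted p = 0.0798). Its adjusted p was 0.000461 with equal weights, 0.0473 with probes on at least 1 array of each time and 0.0453 after averaging the probes of each gene, and at 296 h its mean was -0.44. Probe 53F06, far below 0 at both times, differed by 4.86 ± 0.82 (adjusted p = 0.173).

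The probe names of Npy and Naa35, 46G05 and 46G09, place them in the same plate row. The unnamed probe 46G10 of that row had 2.43 and 4.52 at 148 h, against 0.58, 0.63 and 2.26 at 48 h, a difference of 2.53 ± 0.81. The neighbours Mc4r (46G07) and Casr (46G08) differed by -0.49 ± 0.95 and -0.10 ± 0.98. For 296 h minus 24 h, probe 46G10 differed by 2.66 ± 0.74 (SE, adjusted p = 0.452). In the same row Ppt2 (46G02), Ndufaf3 (46G03) and Mc4r differed there by 0.34 ± 0.79, 0.63 ± 0.48 and 0.13 ± 0.86. The part of plate position in these values was not tested.

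At the low end Slc7a5, for a large neutral amino acid transporter, had -2.42 and -0.75 on replicates 1 and 3 at 148 h, against 1.38 and 1.28 on replicates 1 and 2 at 48 h. Dapk3, for a death-associated protein kinase, had -0.90 and -1.45 on probe 10F10 at 148 h, against 0.43 and 0.97 at 48 h. Its probe 10F01 went the other way, with a difference of 0.96, and averaging the probes of the gene gave -0.67. Ptger4, for the prostaglandin E receptor EP4, had -1.13 and -1.53 at 148 h, against 0.75 and 0.55 at 48 h. For Slc7a5, probe 10F10 of Dapk3 and Ptger4 the lesion ratio was above 0 at 48 h and below 0 at 148 h. The differences were -2.66 ± 0.55, -1.84 ± 0.38 and -1.98 ± 0.46 (adjusted p = 0.0812, 0.0812 and 0.123). Signalling genes followed: Rgs2, a regulator of G protein signalling, had 0.02 and -0.49 at 148 h, against 0.69, 2.00 and 2.65 at 48 h, and the kinase gene Rock2 and the lysophosphatidic acid receptor gene Lpar1 differed by -2.32 ± 0.65 and -1.77 ± 0.56. The other low probes were Lenep, Amacr, Pde4dip, Ryr1, Vch and Calca. Ryr1 differed by -2.53 on probe 21G05, which ranked here, and by 0.16 on probe 21G06. Vch had -2.10, -3.36 and -7.80 at 148 h, against -1.92, -1.53 and -1.44 at 48 h, where 1 array made most of the difference. All 12 of the lowest with a symbol were without overlap, beside 8.06% of all probes in this direction. The ranking used these same arrays, so it favoured such separation. The 3 probes without a symbol that stood among them were 31B09 (-4.85 ± 1.03, adjusted p = 0.0812), 53C07 (-3.85 ± 1.06) and 21G02 (-1.297 ± 0.36).

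**Figure D4:**
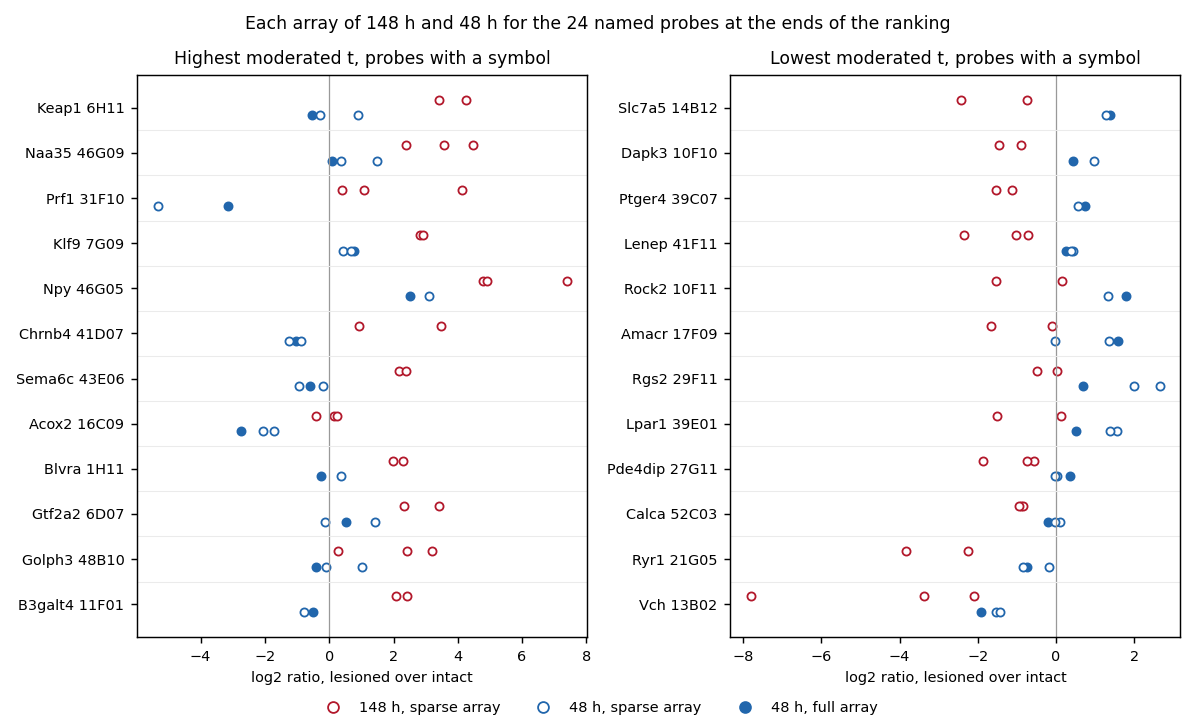
Log2 ratio of lesioned over intact on each array for the 12 probes with a gene symbol and the highest (left) and the 12 with the lowest moderated t (right), probes without a symbol left out, 148 h in red above 48 h in blue, full arrays filled and sparse arrays open. Prf1 and Acox2 differ mainly through low 48 h arrays, and Npy, Naa35, Keap1 and Klf9 through high 148 h arrays.

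Genes with more than 1 probe limit how far a single probe can be read. For 99 genes with several tested probes (Gapdh apart), the differences of a pair of probes had the same sign in 60, with Pearson's r = 0.02 and Spearman's rho = 0.12 across genes. Calca, Nefl and Hspb1 were among the genes whose probes had like signs, and Ret, Mag, Map1b, Dapk3 and Ryr1 among those with opposite signs. The 53 Gapdh probes had an SD of 0.134 to 0.195 on the sparse arrays, far below the SD of all probes.

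The arrays at 296 h and 24 h did not enter the means compared, though the variance of each probe was shared. Of 2808 probes tested there, 2 passed the threshold (0.0712%), and they were Npy and Naa35, which share the plate row described above. Npy had 3.98 and 5.34 at 296 h, against 0.45, 0.21 and 0.18 at 24 h, and was higher by 4.41 ± 0.51 (SE, adjusted p = 0.000379). Naa35 had 2.07 and 3.88 at 296 h, against -0.29, -0.57 and -0.32 at 24 h, and was higher by 3.39 ± 0.54 (adjusted p = 0.0102). Npy passed on each leave-out of 1 array, whereas Naa35 had 2.48 without the sparse replicate 2 at 296 h and missed the threshold (adjusted p = 0.0598). Without replicate 1 at 296 h, where the remaining array is sparse, 491 probes passed. With the arrays of these times alone, with or without array weights, and with the methods' t-test 0 passed, and with array class in the model 1 did, Npy. Of the 12 highest probes with a symbol 7 were tested at these times and 5 of them were above 0, whereas 54.4% of all 2338 probes tested in both comparisons were. Of these 5, Npy and Naa35 were high on each 296 h array. Sema6c had -0.18 on the full and 2.44 on the sparse 296 h array, Gtf2a2 had 0.36 and 2.37, and Chrnb4 differed by 0.18. The part of array class in this count was not tested. Of the 12 lowest, 5 of 8 tested were below 0. Over the 2338 probes, which are not independent replicates, the differences correlated with Pearson's r = 0.23 and Spearman's rho = 0.19.

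**Figure D5:**
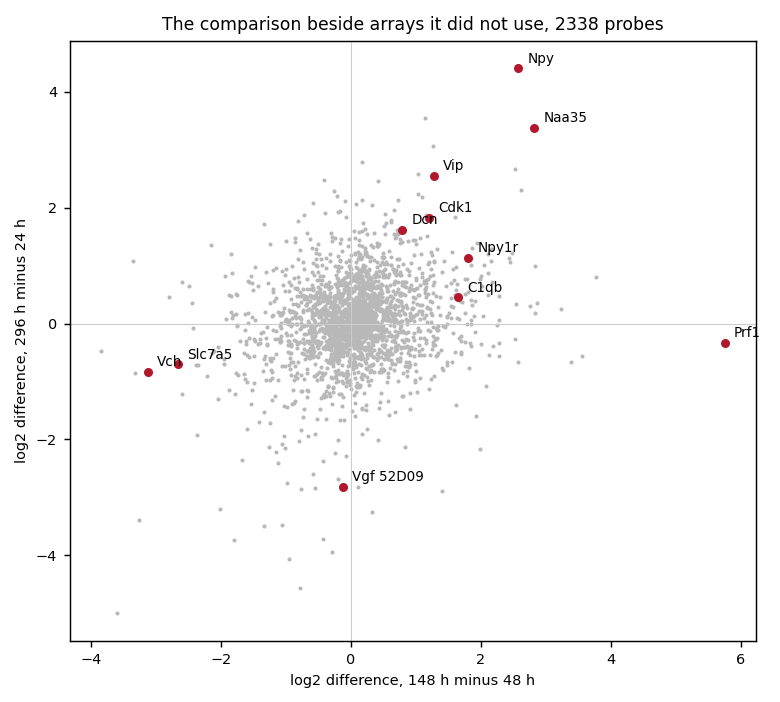
Log2 difference of 296 h minus 24 h (vertical) against 148 h minus 48 h (horizontal) for 2338 probes tested in both, with named probes in red. Npy and Naa35 lie at the upper right, at 4.41 and 3.39 on the vertical axis, and Prf1, with 5.75 on the horizontal axis, is at -0.33 on the vertical one.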

How the data were processed

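The authors deposited 1 linear ratio per probe and array (lesioned Cy5 over intact Cy3, direction taken from the dyes), with no intensities. How far spots stood above background cannot be told, and precision is limited by the array count. The scanner software and any background correction or normalization are not given in the sources used here. The ratios were turned into log2 without an offset. Probe symbols came from the platform annotation, with 4423 of 5088 probes having 1 symbol, 2 several and 663 none, and 4375 Entrez identifiers matched RefSeq.

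A mean for each of 8 times was fitted over all 23 arrays with limma 3.58.1 in R 4.3.3, using array weights and moderated variance. The tests were two-sided, with Benjamini-Hochberg adjustment over all probes tested and a threshold of 0.05. Differences are weighted means, so they can depart from plain averages. The fit was tested on simulated data. Of the 3090 probes, 1723 were measured on all 6 arrays. The other 1998 probes had too few arrays, 1901 of them at 148 h.

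The comparison, its gene lists and its tests were chosen with earlier results of these data known. Genes named are, among probes with 1 symbol, the 12 highest and 12 lowest by moderated t, the 3 markers, up to 4 members of each list by moderated t, and tested members of the peptide, nociceptor, regeneration and macrophage lists; others are said to be outside this rule where they appear. Not every gene it names is described. Lists are described by counts and medians. Promoters came from RefSeq (GRCr8), with 56 of 71 named genes matched. Alternatives were equal weights, the arrays of both times alone, the methods' t-test, median centring, scaling, other filters on missing probes, robust variance, gene means, array class or replicate number as a term, and leaving out arrays. Setting log2 ratios beyond 8 to missing was added after the data were seen.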

Additional observations from a re-analysis of the deposited data

Results flagged for a closer look

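For 16 of the named probes every array at 148 h lay on the opposite side of 0 from every array at 48 h. The difference was tested in the fit for each and passed the threshold for none. The 8 above 0 at 148 h and below 0 at 48 h were Prf1 (5.75), Tnnc2 (2.96), B3galt4 (2.89), Chrnb4 (2.84), Sema6c (2.83), Mal (2.49), Npy1r (1.81) and Gpx1 (1.18), as log2 differences of 148 h minus 48 h. The 8 below 0 at 148 h and above 0 at 48 h were Slc7a5 (-2.66), Ptger4 (-1.98), Dapk3 10F10 (-1.84), Lenep (-1.81), Aif1 (-1.17), Il6 (-0.96), Ntrk2 (-0.94) and Sod1 (-0.43). Probe 10F01 of Dapk3 had a difference of 0.96. The Il6 values are those of a probe that did not show the large rise described above for this mRNA. Among all 3090 probes 64 (2.07%) and 49 (1.59%) had these patterns. Groups of 3 arrays or fewer are too small for a test of single outlying arrays.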

How the results depend on the processing

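The count of 0 calls for 148 h minus 48 h was also 0 under median centring, scaling, robust variance, both filters to the 6 arrays alone, probes on every array, array class as a term and the methods' t-test. It was 76 with equal weights, 9 with probes on at least 1 array of each time and 5 after averaging the probes of each gene, and it ran from 0 to 10 when 1 array was left out. For 296 h minus 24 h the 2 calls became 0 with the arrays of both times alone (equal or array weights) and with the methods' t-test, 1 with array class as a term, and 2 to 491 when 1 array was left out. Whether replicate numbers pair the arrays is not known. Deviations of same-numbered arrays correlated at 0.10, 0.00 and 0.15 over 1723 probes, and those of unlike-numbered arrays between -0.14 and 0.08. With a replicate block the counts were 0 and 2. Of 1370 alternative fits of 80 named probes, 1318 kept sign and side of the threshold, 37 passed it (on 26 probes), 0 lost it and 15 changed sign (on 6 probes). No named probe was past the threshold in the main fit, so none could lose it. Most also stood far from the threshold, so a kept side says little of how stable a difference was. Sign changes outside the leave-outs were, after scaling, Gap43 (-0.014) and Stmn4 (-0.19), with array class as a term, Vgf 52D09 (0.71), Stmn4 (-0.10) and Mag 32H06 (-0.0032), after averaging the probes of each gene, Ret 35F03 (0.65), Map1b 31C10 (0.34) and Mag 32H06 (-0.63), with median centring, Stmn4 (-0.018), and with the replicate block, Stmn4 (-0.036). Leave-outs ran from -0.40 to 0.032 for Vgf 52D09, -0.19 to 0.44 for Stmn4 and -0.25 to 0.58 for Mag 32H06. The cause of these changes was not tested. Missing probes at 148 h and the wide spread of sparse arrays limit which differences could be tested.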
